A study of Mus musculus with 6 samples.

Results

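The transcripts described here are those of 40 ribosome biogenesis factors, measured in isolated mouse pancreatic islets held for 24 h at low or at high glucose. They were taken as a list of 40 symbols, all 40 were found by GENCODE M21 name among the 46983 genes of the count table, and all 40 had enough counts to be tested. The members were a list of names and not a selection by measured value, although earlier results of these data were known when the list was made.

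Ribosomes are built in the nucleolus, where RNA polymerase I (Pol I) transcribes a long precursor that is chemically modified by guide RNA particles, folded and cut, and assembled with ribosomal proteins into a small and a large subunit. Box C/D particles place methyl groups on the ribosomal RNA, box H/ACA particles convert uridine to pseudouridine, and the small subunit processome is the large early particle that holds the small subunit RNA. The transcription factor Myc is a known activator of many of these genes in growing cells, and beta cells make ribosomes to sustain the synthesis of proinsulin.

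All 6 libraries were polyadenylated RNA of wild-type islets cultured in CMRL medium, a tissue culture medium commonly used for islets, 3 libraries kept at a non-stimulating (low) and 3 at a stimulating (high) glucose concentration. The sources used here do not state the concentrations, the mouse strain, age or sex, or how many animals a library came from. They also do not say whether the 3 libraries of a group are separate cultures, and the p-values therefore reflect the spread among these 6 libraries, which may be technical. Library totals ranged from 10596020 to 12730985 counts at low and from 14150726 to 15846235 counts at high glucose. Levels below are CPM, counts scaled to a library of 1e+06 after TMM scaling, which sets library sizes so that most genes do not differ, and fold changes are log2, high minus low glucose, ± SE, from edgeR's quasi-likelihood test over 13996 genes with an adjusted p under 0.05 as the threshold.

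Islet hormone genes were present in every library, as the label of islets requires, and the libraries also held other RNA. Below, rose and fell refer to the TMM-scaled fit and percentages to shares of raw counts, so their directions can differ. The hormone and granule genes summed to 51975.7, 40246.6 and 45499 TMM-scaled CPM in low glucose replicates 1 to 3. In high glucose replicates 1 to 3 they summed to 59513.5, 29089.4 and 32862.5 CPM. The 14 hormone and granule genes, none of them at 0 in any library, took 4.88%, 2.28% and 2.47% of counts in low and 10.6%, 3.98% and 4.61% in high glucose replicates 1 to 3, and 3 of the 14 rose and 0 fell. The 20 acinar markers, which mark the enzyme-secreting exocrine cells, took 46.2% to 61.5% of counts at low and 11.9% to 23.9% at high glucose, with 18 of 20 lower and none at 0. All 10 intestinal epithelium markers fell, from 0.0896% to 0.500% of counts down to 0.00440% to 0.0296%, and Sis and Lct were at 0 in some library. Of the other marker lists, 2 of 6 duct genes rose (0.0342% to 0.0430% of counts at low, 0.347% to 0.523% at high glucose), 3 of 7 mesenchyme genes fell (0.0137% to 0.0267% and 0.00269% to 0.0409%), 2 of 5 endothelial genes fell (0.0120% to 0.0239% and 0.0153% to 0.0416%), and 1 of 7 leukocyte genes rose (0.00691% to 0.0157% and 0.00266% to 0.0312%), with no marker of these at 0. Among 7 proliferation genes measured of 8, 1 rose and 1 fell (0.00298% to 0.00580% and 0.00666% to 0.0102% of counts, Ccnb1 and Bub1 at 0 in some library). Fitted changes were positive, called or not, in 2 of 6 duct, 0 of 7 mesenchyme, 1 of 5 endothelial, 1 of 7 leukocyte and 2 of 7 proliferation genes. The medians of these lists were -0.27, -2.25, -0.52, -1.05 and -1.62 in that order, and the duct changes ran from -2.29 to 4.15. In such bulk RNA, fewer cells of a type and less RNA per cell cannot be told apart, and the part of cell makeup in the values below was not tested.

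Relative to most genes under TMM scaling, ribosome biogenesis transcripts were higher in the high glucose libraries. Of the 40 genes, 25 rose, none fell and 15 did not pass edgeR's test, against a background of 13.3% of all tested genes higher and 14.2% lower. No member fell at an unadjusted p under 0.05 (0 of 40), and DESeq2 and limma-voom also gave 0 lower, with 29 and 24 higher (backgrounds 15.6% and 10.7%). With the replicate number as a block 32 were higher (15.7%). All 40 fitted changes were positive, with a median of 0.87 where the median of all tested genes was 0.01, and they ran from 0.10 for Nop10 to 1.66 for Noc4l. In 30 of the 40 every high glucose library lay above every low glucose library, as did 23.5% of all tested genes. The largest changes belonged to Noc4l and Utp20 of the small subunit processome, and 10 members had a fitted change of at least 2-fold.

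**Figure D1:**
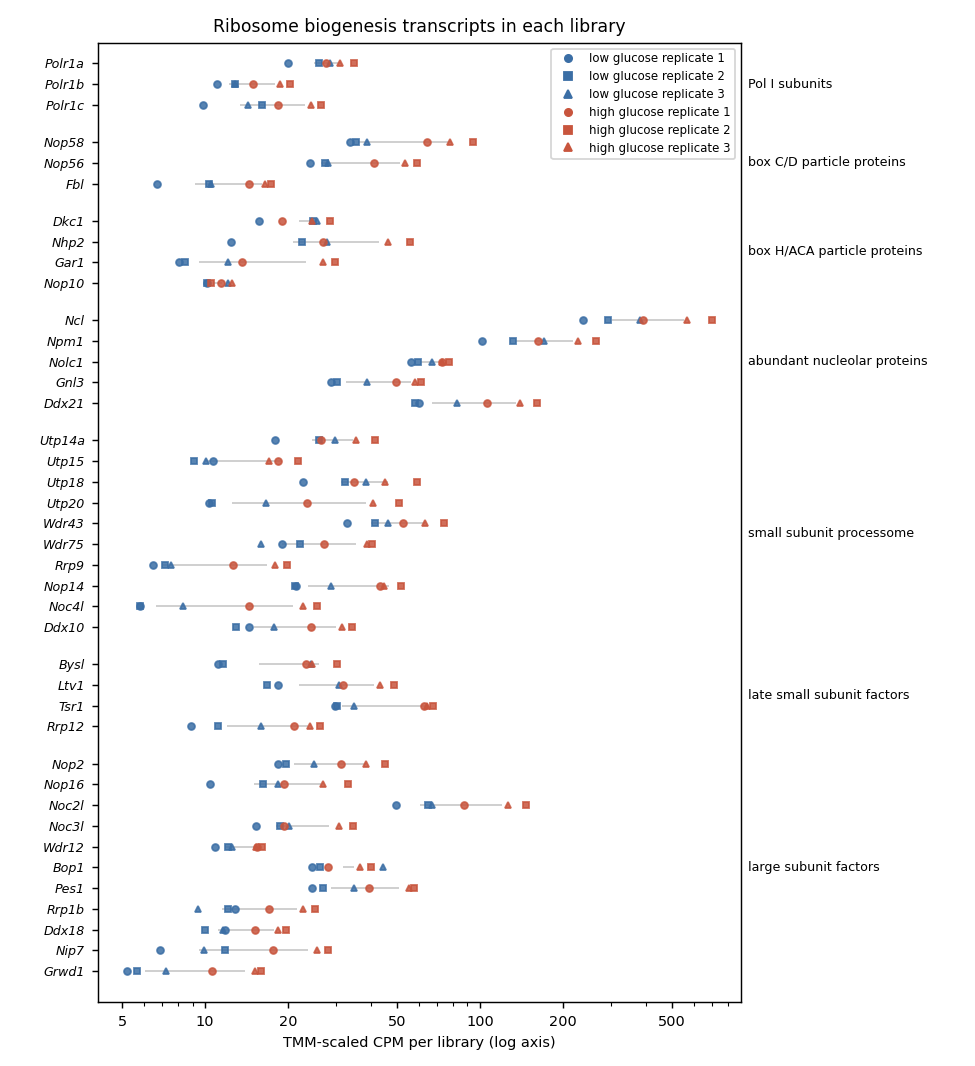
TMM-scaled CPM of each of the 40 ribosome biogenesis genes in each library (log axis), grouped by role; blue points are low and red points high glucose libraries, with a shape for each replicate number and a grey line between the group means. In 30 genes the red points all lie to the right of the blue ones, and high glucose replicate 1 (red circle) is the lowest of its group in 37 genes.

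The number of members called depended on which libraries were in the fit. Without low glucose replicate 1 it was 14, without low replicate 2 it was 9, without high replicate 2 it was 13 and without high replicate 3 it was 11, where 7.71%, 4.86%, 7.66% and 5.78% of all genes were higher. Without low replicate 3 it was 22 (background 8.76%), and without high replicate 1 it was 33 (19.8%). Scaling mattered as well. With library totals as the sizes all 40 were higher, but so were 59.7% of all genes, whose median moved to 1.16. With library sizes taken from hormone and granule counts 10 were higher against 7.78% of all genes, and these were Ddx10, Gar1, Grwd1, Nip7, Noc4l, Nop14, Nop58, Rrp9, Tsr1 and Utp20. Nop58, Rrp9, Nop14, Noc4l, Tsr1 and Nip7 (6 members) were called under all 19 alternatives, and these 6 with Nop56 and Utp15 (8 members) were called whichever library was left out. Over the 19 alternatives the members' median lay 0.71 to 1.03 above that of all genes in the same fit. Rescaling moves all genes nearly alike, so the alternatives that only rescale could hardly change this distance. Its lowest and highest values came without low replicate 1 and without high replicate 1.

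**Figure D2:**
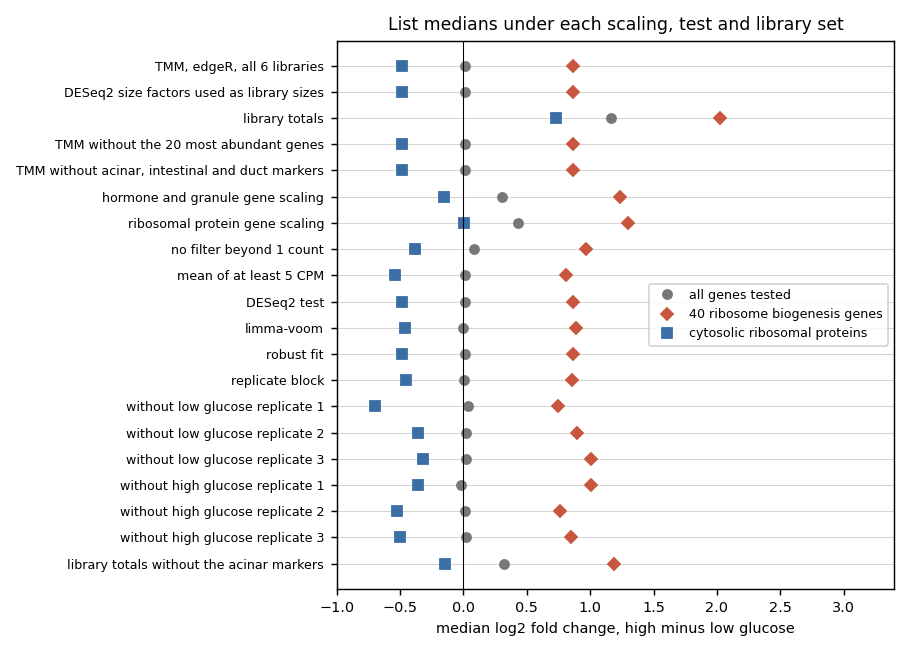
Median log2 fold change (high minus low glucose) of all tested genes, of the 40 ribosome biogenesis genes and of the cytosolic ribosomal protein genes under the reported fit (top) and each of 19 alternatives. The red diamonds lie 0.71 to 1.03 to the right of the grey points, which move from 0.01 to 1.16 with library totals. Rescaling alone can hardly change this distance.

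Within each group the members kept a common order of libraries. High replicate 1 was the lowest high glucose library for 37 of 40 members (92.5%, against 44.9% of all tested genes). High replicate 2 was the highest for 39 of 40 (97.5%, against 35.3%). Low replicate 1 was the lowest low glucose library for 32 of 40 (80.0%, against 36.8%). Low replicate 3 was the highest for 34 of 40 (85%, against 35.5%). The lowest library of each group for the members was the one with the largest hormone and granule share, 4.88% among the low and 10.6% among the high glucose libraries. The same libraries also had the largest intestinal, mesenchyme, endothelial, leukocyte and proliferation marker shares of their group and the smallest acinar share (46.2% and 11.9%). Those shares are of raw counts, whereas the members' order is by TMM-scaled CPM. As a share of raw counts the members were highest in low replicate 1 (0.0991%, 0.0708% and 0.0835% in replicates 1 to 3). High replicate 1 stayed the lowest of its group (0.313%, 0.368% and 0.326%). By TMM-scaled CPM, the low group's mesenchyme, leukocyte and proliferation sums were largest in low replicate 3. The part of these shares in the members' levels was not tested.

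Ratios of counts within a library do not depend on scaling. The members' summed counts equalled 15.4%, 10.5% and 12.5% of those of 50 cytosolic ribosomal protein genes in the low glucose libraries (replicates 1 to 3), and those at high glucose gave 28.3%, 34.1% and 29.7%. The groups did not overlap, and the means were 12.8% ± 2.47 and 30.7% ± 3.00 (SD, n = 3 each). This ratio also holds the movement of its denominator. The ribosomal protein genes had a median log2 fold change of -0.48 with TMM scaling. Against the hormone and granule genes the members' summed counts were 2.03%, 3.10% and 3.38% at low and 2.94%, 9.24% and 7.06% at high glucose. High replicate 1 then lay among the low glucose libraries, while high replicates 2 and 3 lay above all of them. This ratio, too, holds the movement of its denominator. The hormone and granule sum was 59513.5 TMM-scaled CPM in high replicate 1, and 29089.4 and 32862.5 CPM in high replicates 2 and 3.

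**Figure D3:**
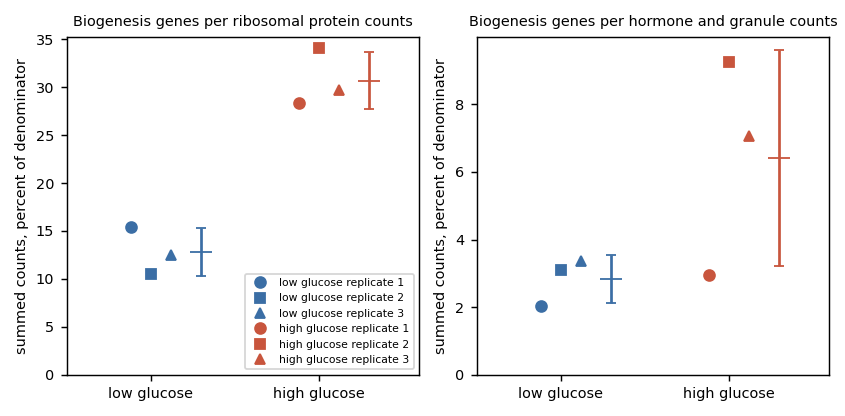
Summed counts of the 40 ribosome biogenesis genes as a percent of the counts of 50 cytosolic ribosomal protein genes (left) and of 14 hormone and granule genes (right), per library, with mean ± SD (n = 3) beside the points. On the left the groups are apart (10.5% to 15.4% and 28.3% to 34.1%); on the right high glucose replicate 1, at 2.94%, lies among the low glucose libraries.

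The promoters are shown next because many members moved together. The sequence CACGTG, an E-box bound by Myc with its partner Max, was searched in windows from 250 bases before to 50 bases after each RefSeq start site (GRCm38.p6). The hexamer reads the same on both strands. Windows were found for 36 of the 40 genes, and 8 of the 36 (22.2%) held it, against 8.91% of protein-coding genes and 8.09% of all genes with a window. It was present in 7 of 23 matched members that rose and in 1 of 13 that did not pass, and in 20.9% of the other ribosome biogenesis genes listed for comparison and 15.8% of cytosolic ribosomal protein genes. The protein-coding share covers 17491 genes with a window, whether or not they were tested here. Differences between these shares were not tested. A match is a description of these letters only. The hexamers are set out here on the gene's strand, 5′ to 3′, with up to 20 bases on each side (fewer where the window ends) and the E-box in capitals, so that their surroundings can be compared.
Grwd1: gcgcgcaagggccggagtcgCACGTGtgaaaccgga
Ltv1: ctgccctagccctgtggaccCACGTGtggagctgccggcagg
Nop2: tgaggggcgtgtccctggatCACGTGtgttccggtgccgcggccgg
Pes1: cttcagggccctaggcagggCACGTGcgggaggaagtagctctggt
Tsr1: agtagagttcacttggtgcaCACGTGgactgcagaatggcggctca
Utp18: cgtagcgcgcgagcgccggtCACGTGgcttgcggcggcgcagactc
Utp20: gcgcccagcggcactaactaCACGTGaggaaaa
Wdr43: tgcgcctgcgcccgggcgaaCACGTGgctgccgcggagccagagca
In Grwd1, Ltv1, Pes1, Tsr1, Utp20 and Wdr43 the hexamer began downstream of the RefSeq start site, and in Nop2 and Utp18 it began 60 and 20 bases upstream. Utp18 is the member of these 8 that did not pass the test (0.58 ± 0.26). The whole windows of Tsr1, the member with the smallest p, at chr11:74897830-74898129 (plus strand, GRCm38.p6), and of Nop2, where the hexamer lies upstream, at chr6:125131633-125131932 (plus strand), are given for context, with the E-box in capitals.
Tsr1: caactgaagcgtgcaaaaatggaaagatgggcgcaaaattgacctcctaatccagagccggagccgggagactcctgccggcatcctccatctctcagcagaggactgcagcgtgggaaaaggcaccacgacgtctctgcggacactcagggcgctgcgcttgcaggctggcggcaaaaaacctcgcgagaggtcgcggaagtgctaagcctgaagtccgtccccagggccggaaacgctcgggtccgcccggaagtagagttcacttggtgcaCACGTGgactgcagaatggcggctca
Nop2: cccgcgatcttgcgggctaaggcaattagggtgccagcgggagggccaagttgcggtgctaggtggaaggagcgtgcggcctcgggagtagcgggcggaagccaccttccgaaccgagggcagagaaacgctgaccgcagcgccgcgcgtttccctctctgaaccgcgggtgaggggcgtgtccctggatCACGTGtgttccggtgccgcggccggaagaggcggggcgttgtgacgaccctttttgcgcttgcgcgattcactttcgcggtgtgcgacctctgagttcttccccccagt
The promoter motif bound by BANP, a palindrome of 10 bases, was searched in the same windows and matched in 0 of 36 members, where 0.525% of all genes with a window and 0.755% of protein-coding genes held it. It matched in 3.30% of the other ribosome biogenesis genes and in 10.5% of cytosolic ribosomal protein genes.

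Pol I subunits are the enzyme that makes the ribosomal RNA precursor, and here 1 of 3 rose. Beside this and the counts by role or complex below, 13.3% of all tested genes were higher. Polr1c, a subunit shared with RNA polymerase III (chromosome 17, 46243920 to 46248054, GRCm38), had 9.79, 16.1 and 14.3 CPM in low and 18.4, 26.4 and 24.3 CPM in high glucose replicates 1 to 3. All 3 high glucose values exceeded the low ones, and the change was 0.79 ± 0.24 with an edgeR adjusted p of 0.0450. The call was lost without any library but high replicate 1 (0.60 to 0.95). Polr1a, the largest subunit, had 20.1, 25.9 and 28.5 CPM at low and 27.6, 34.7 and 31.0 CPM at high glucose, so that the groups overlapped, and its change of 0.33 (95% interval -0.09 to 0.75) did not pass. Polr1b, the second largest, stood at 0.56 ± 0.19 without overlap and with an edgeR adjusted p of 0.0594, and with the replicate number as a block the change was 0.55 with an adjusted p of 0.0493.

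All 3 box C/D particle proteins rose. Nop58 and Nop56 are paired core proteins of the particle, and Fbl encodes fibrillarin, its methyltransferase. Nop58 (chromosome 1, 59684971 to 59719044) had 33.7, 35.4 and 38.7 CPM in low and 64.2, 94.5 and 77.6 CPM in high glucose replicates 1 to 3. Every high glucose library held at least 64.2 CPM where no low glucose library passed 38.7, and the change was 1.13 ± 0.18 with an edgeR adjusted p of 0.00446. For Nop56 (chromosome 2, 130274430 to 130279313) the values were 24.1, 27.3 and 28.0 CPM at low and 41.3, 59.0 and 53.4 CPM at high glucose, a change of 0.96 ± 0.17 with no overlap and an adjusted p of 0.00748. Fbl went from 6.70, 10.3 and 10.5 CPM to 14.5, 17.4 and 16.5 CPM, a change of 0.83 ± 0.22 with an adjusted p of 0.0314. Unlike Nop58 and Nop56, Fbl lost its call without low replicate 1 or 2 or high replicate 2 or 3 (0.63 to 0.93).

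Of the 4 box H/ACA particle proteins, 1 rose. Gar1, a core protein of the particle, had 8.03, 8.48 and 12.1 CPM in low and 13.6, 29.7 and 26.8 CPM in high glucose replicates 1 to 3. The spread within the high glucose group was wide, and the change was 1.29 ± 0.33 with an edgeR adjusted p of 0.0251, lost without low replicate 1 or 2 or high replicate 2 or 3 (1.09 to 1.23) and in limma-voom. Nhp2, which also belongs to the core, had 12.5, 22.6 and 27.7 CPM at low and 26.7, 55.7 and 46.3 CPM at high glucose. High replicate 1 lay just under low replicate 3, and the change of 1.05 ± 0.36 had an adjusted p of 0.0650, or 0.00493 in the fit with the replicate block (1.05). Dkc1, the pseudouridine synthase dyskerin, stood at 0.13 (95% interval -0.43 to 0.69) and Nop10, the smallest core protein, at 0.10 (-0.32 to 0.51). Both overlapped between groups, and for Dkc1 the sign turned without low replicate 1 (-0.07) or high replicate 2 (-0.0018). A difference between these 4 genes was not tested.

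Among 5 abundant nucleolar proteins 2 rose. Ddx21, an RNA helicase that acts on Pol I transcription and ribosomal RNA processing, had 59.8, 58.0 and 82.7 CPM in low and 106, 161 and 140 CPM in high glucose replicates 1 to 3. Groups did not overlap, and the change was 1.02 ± 0.22 with an edgeR adjusted p of 0.0148. Gnl3, which encodes the nucleolar GTP-binding protein nucleostemin, went from 28.7, 30.3 and 38.7 CPM to 49.6, 60.8 and 58.2 CPM, also without overlap, a change of 0.79 ± 0.17 with an adjusted p of 0.0133. Both calls were lost without low replicate 2 or high replicate 3 (0.94 to 1.01 for Ddx21, 0.75 to 0.77 for Gnl3). Nucleolin, encoded by Ncl (chromosome 1, 86344719 to 86359400), is a major nucleolar RNA-binding protein. Its values were 238, 292 and 381 CPM at low and 393, 697 and 567 CPM at high glucose, apart but with high replicate 1 close to low replicate 3. The change of 0.86 ± 0.29 had an adjusted p of 0.0621, and 0.0199 with the replicate block (0.85). Npm1, the nucleolar chaperone nucleophosmin, stood at 0.70 ± 0.26 with an adjusted p of 0.0862, and 0.0267 with the block (0.70). Nolc1, a chaperone of guide RNA particles, had 56.2, 59.5 and 67.1 CPM at low and 72.7, 76.9 and 72.9 CPM at high glucose without overlap, and did not pass, at a change of 0.28 with a 95% interval of -0.03 to 0.60.

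**Figure D4:**
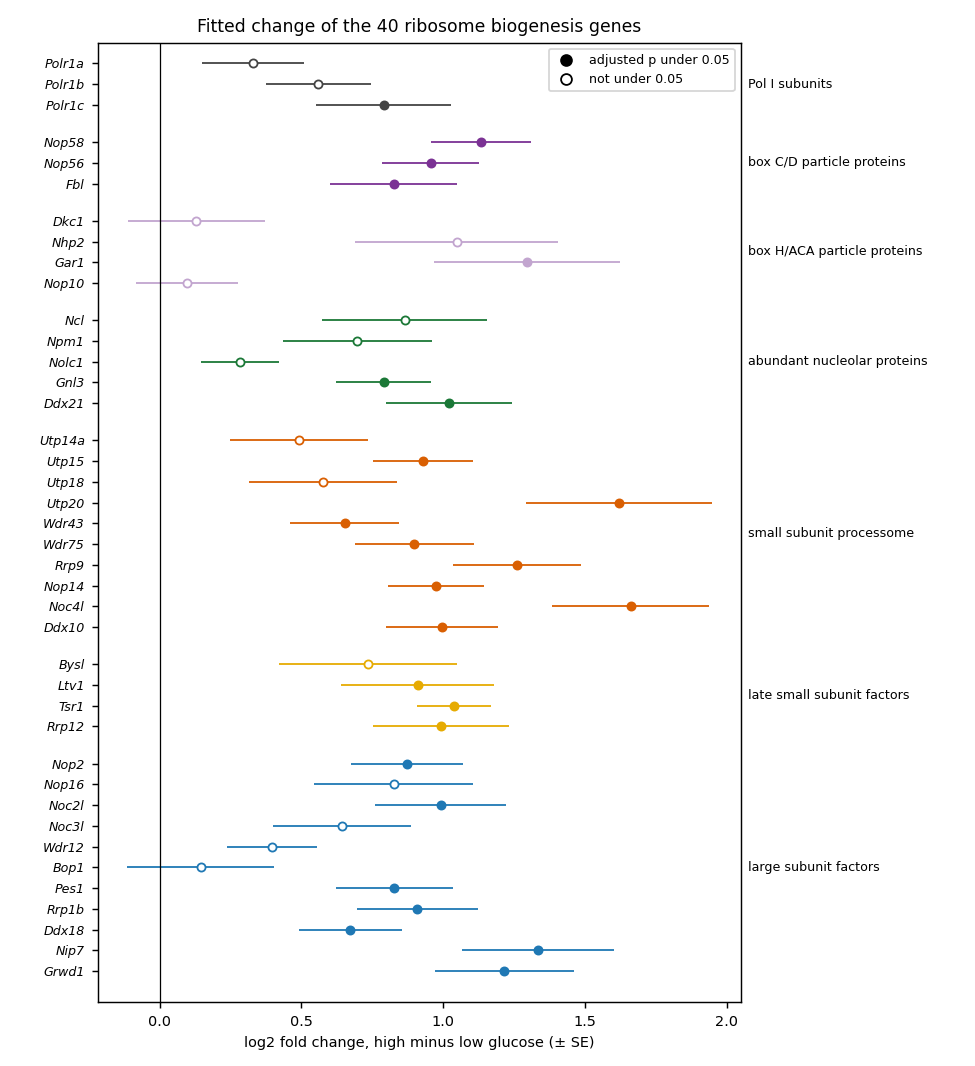
Fitted log2 fold change (high minus low glucose, ± SE) of the 40 ribosome biogenesis genes by role; filled points have an adjusted p under 0.05 and open points do not. All 40 points lie right of 0, from 0.10 for Nop10 to 1.66 for Noc4l, and 25 are filled.

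Of the 10 small subunit processome genes 8 rose. With 1 library left out the count ran from 5 (without low replicate 2) to 10 (without high replicate 1). In those fits 4.86% and 19.8% of all genes were higher. Noc4l (chromosome 5, 110648418 to 110653417), whose yeast counterpart partners Nop14 in small subunit assembly, had 5.77, 5.82 and 8.33 CPM in low and 14.5, 25.6 and 22.7 CPM in high glucose replicates 1 to 3. The lowest high glucose value was above the highest low one, and the change of 1.66 ± 0.28, a fitted 3.16-fold, had an edgeR adjusted p of 0.00559. Nop14 itself went from 21.3, 21.3 and 28.6 CPM to 43.2, 51.7 and 44.8 CPM, a change of 0.97 ± 0.17 with an adjusted p of 0.00663. Utp20 (chromosome 10, 88746607 to 88826804), a very large scaffold protein, had 10.3, 10.6 and 16.7 CPM at low and 23.4, 50.8 and 40.9 CPM at high glucose. High replicates 2 and 3 stood far above high replicate 1, and the change of 1.62 ± 0.33 had an adjusted p of 0.0115, which became 0.0554 without low replicate 2 (1.53). Rrp9, a protein of the U3 particle that guides the first cuts, had 6.44, 7.15 and 7.55 CPM at low and 12.7, 19.9 and 18.0 CPM at high glucose. Its low glucose values were tight (7.05 ± 0.559 CPM, SD, n = 3), and the change was 1.26 ± 0.23.

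Ddx10, a helicase of the processome, had 14.4, 13.0 and 17.8 CPM in low and 24.4, 34.1 and 31.5 CPM in high glucose replicates 1 to 3, a change of 1.00 ± 0.20. Its call was lost without low replicate 2 (0.92). Utp15, of the part that binds the start of the precursor, went from 10.7, 9.14 and 10.1 CPM to 18.4, 21.8 and 17.0 CPM, a change of 0.93 ± 0.18 that held with any library left out. Wdr75 and Wdr43 belong to the same early subcomplex as Utp15. Wdr75 had 19.0, 22.1 and 16.04 CPM at low and 27.1, 40.6 and 38.7 CPM at high glucose (0.90 ± 0.21, lost without low replicate 1 or 3 or high replicate 2 or 3, at 0.80 to 0.89). Wdr43 had 32.9, 41.6 and 46.4 CPM at low and 52.4, 74.0 and 63.2 CPM at high glucose (0.65 ± 0.19, lost without low replicate 1 or 2 or high replicate 2 or 3, at 0.52 to 0.69). In all 4 of these genes the groups did not overlap. Utp14a, known in yeast to activate a processome helicase, and Utp18, known in yeast to recruit the exosome's helicase, did not pass. Utp14a stood at 0.49 (95% interval -0.07 to 1.06) and Utp18 at 0.58 (-0.03 to 1.18), and Utp18 had an edgeR adjusted p of 0.136 that was 0.0428 with the replicate block (0.57).

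Of 4 factors that act late on the small subunit, 3 rose. Tsr1 (chromosome 11, 74898071 to 74909342), a GTPase-like protein that blocks early joining of subunits, had 29.7, 30.1 and 34.8 CPM in low and 62.5, 67.3 and 64.1 CPM in high glucose replicates 1 to 3. Both groups were tight (31.5 ± 2.81 and 64.6 ± 2.45 CPM, SD, n = 3 each), and the change of 1.04 ± 0.13 had an edgeR adjusted p of 0.00216, the smallest among the members. Its exons overlap those of Srr, on the opposite strand, over 1240 bases, and the strand setting of the counting was not given, so some reads may be those of Srr. Noc2l and Bysl likewise overlap Samd11 and Ccnd3, over 598 and 361 exonic bases. Rrp12, an export factor, went from 8.87, 11.1 and 16.04 CPM to 21.01, 26.1 and 24.1 CPM (0.99 ± 0.24, adjusted p 0.0214), and Ltv1, known in yeast to help form the head of the subunit, from 18.4, 16.8 and 30.8 CPM to 31.8, 48.7 and 43.2 CPM (0.91 ± 0.27, adjusted p 0.0430). Neither overlapped between groups, and both calls were lost without low replicate 1 or 2 or high replicate 2 or 3 (0.80 to 0.99 for Rrp12, 0.76 to 0.89 for Ltv1). Bysl, which encodes bystin, a factor of late small subunit precursors, had 11.1, 11.6 and 24.2 CPM at low and 23.2, 30.1 and 24.5 CPM at high glucose, with low replicate 3 inside the high glucose range. Its change of 0.74 ± 0.31 did not pass (adjusted p 0.119), and it did without low replicate 3.

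Large subunit factors rose in 7 of 11 cases, against 13.3% of all tested genes. Without low replicate 1, 2 or 3 the count was 3, 1 or 5, where 7.71%, 4.86% or 8.76% of all genes were higher. It was 2 without high replicate 2 (7.66%) or high replicate 3 (5.78%), and 9 without high replicate 1 (19.8%). Nip7 (chromosome 8, 107056877 to 107060931), a processing factor, had 6.86, 11.8 and 9.91 CPM in low and 17.7, 28.1 and 25.6 CPM in high glucose replicates 1 to 3. Groups were apart, and the change of 1.33 ± 0.27 had an edgeR adjusted p of 0.0114. Grwd1, a chaperone of the ribosomal protein uL3, went from 5.19, 5.65 and 7.23 CPM to 10.6, 16.03 and 15.2 CPM, a change of 1.22 ± 0.24 that became 1.19 with an adjusted p of 0.0517 without low replicate 2. Noc2l, known both as a large subunit factor and as an inhibitor of histone acetyltransferases, had 49.6, 64.8 and 67.1 CPM at low and 87.2, 147 and 126 CPM at high glucose (0.99 ± 0.23). Rrp1b had 12.9, 12.1 and 9.44 CPM at low and 17.1, 25.2 and 22.7 CPM at high glucose (0.91 ± 0.21). Nop2, a cytosine methyltransferase of the large subunit RNA, had 18.4, 19.6 and 25 CPM at low and 31.3, 45.3 and 38.5 CPM at high glucose (0.87 ± 0.20). In each of these 5 genes all high glucose values lay above all low ones.

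Pes1, Bop1 and Wdr12 encode the 3 proteins of the PeBoW complex, which acts in large subunit RNA processing, and 1 of the 3 was called. Pes1 had 24.4, 26.8 and 34.8 CPM in low and 39.5, 57.5 and 55.3 CPM in high glucose replicates 1 to 3, a change of 0.83 ± 0.21 without overlap and with an edgeR adjusted p of 0.0237. Bop1 stood at 0.14 (95% interval -0.46 to 0.75), with low replicate 3 at 44.3 CPM above every high glucose library, and its sign turned without low replicate 1 (-0.02). Wdr12 stood at 0.40 (0.03 to 0.76, adjusted p 0.101) without overlap. A difference between these 3 genes was not tested. Ddx18, a helicase, had 11.8, 9.97 and 11.6 CPM at low and 15.1, 19.8 and 18.5 CPM at high glucose (0.67 ± 0.18), and was called without high replicate 1 but lost with any other library left out (0.60 to 0.72). Noc2l, Nop2 and Pes1 lost their calls without low replicate 1 or 2 or high replicate 2 or 3, and Rrp1b without low replicate 2 or 3 or high replicate 2 or 3, at 0.72 to 1.05 in all 4 genes. Nop16 and Noc3l, both early large subunit factors, did not pass (0.83 ± 0.28 and 0.64 ± 0.24, edgeR adjusted p 0.0638 and 0.0869), and with the replicate block their adjusted p was 0.0137 (0.82) and 0.03815 (0.60).

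Some members also host guide RNA genes. Introns of some ribosome-related genes carry snoRNAs, the guide RNAs of the box C/D and H/ACA particles. In GENCODE M21, 7 of the 40 members (17.5%) hold an annotated snoRNA within the gene on the same strand, as do 1.19% of protein-coding genes of the table. They are Nop58 with 4, Nop56 with 5, Ncl, Gnl3 and Wdr43 with 3 each, Tsr1 with 2 and Dkc1 with 1. Of these 7, 5 rose and Ncl and Dkc1 did not pass, where 13.3% of all tested genes rose.

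Other genes of the same pathway and 10 genes of the Myc network were listed from textbook knowledge. These wider lists held 119 genes in all, with 118 tested. Of the 118, 45 rose and 2 fell by edgeR's test, with a median of 0.52, against a background of 13.3% higher and 14.2% lower. Both genes that fell, Mycn and Mxd1, were among the 9 tested Myc network genes, whose median was -0.30. The count of higher genes was 14 with hormone and granule gene scaling (background 7.78%) and 113 with library totals (59.7%). It was 18 without low replicate 1 (7.71%), 15 without low replicate 2 (4.86%) and 19 without high replicate 2 (7.66%). Without high replicate 3 it was 16 (5.78%), and without high replicate 1 it was 71 (19.8%). By list, 15 of 38 small subunit factors, 21 of 47 large subunit factors, 6 of 12 exosome genes and 3 of 12 Pol I genes rose and none of these fell. With 1 library left out these counts ranged from 6 to 24, 8 to 32, 0 to 8 and 1 to 6 in that order. In the same fits 4.86% to 19.8% of all genes were higher. The exosome count was 0 without low replicate 2, 1 without low replicate 1 or high replicate 3, and 2 without high replicate 2. Without low replicate 1 or 2 or high replicate 2 or 3, at most 7 small subunit, 9 large subunit and 1 Pol I genes were called, and the highest counts were those without high replicate 1.

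Eif6, which keeps the new large subunit from joining the small one, had 34.6, 39.1 and 29.4 CPM in low and 76.6, 114 and 106 CPM in high glucose replicates 1 to 3. The groups were far apart, and the change was 1.53 ± 0.20 with an edgeR adjusted p of 0.00251. Rpf2, which helps place the 5S particle, changed by 1.20 ± 0.18, and Utp4 and Rrp7a of the small subunit by 1.12 ± 0.17 and 0.92 ± 0.16. The exosome, a complex that trims ribosomal RNA from its 3′ end, was represented by its nuclease Dis3 (1.15 ± 0.26) and its subunit Exosc3 (0.95 ± 0.20). Exosc3 lost its call without low replicate 2 (0.92), and Dis3 lost it without low replicate 1 or 2 or high replicate 3 (1.10 to 1.16). Of the Pol I genes, Tcof1, whose protein treacle links Pol I to processing, rose by 0.75 ± 0.13 and Twistnb, a Pol I subunit, by 0.87 ± 0.26. Twistnb was not called with the replicate block (0.82, adjusted p 0.0505) or without any library but high replicate 1 (0.71 to 0.92). Tcof1, Twistnb, Rrp7a and Exosc3 were not called with hormone and granule gene scaling.

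The Pol I initiation factor genes Rrn3 and Ubtf did not pass. Rrn3 stood at 0.51 ± 0.16 with an edgeR adjusted p of 0.0517, and 0.0377 with the replicate block (0.51). Ubtf had 118, 130 and 123 CPM in low and 81.2, 104 and 107 CPM in high glucose replicates 1 to 3. Its high glucose values lay below all low ones, and the change of -0.34 ± 0.17 became 0.07 with ribosomal protein gene scaling and 0.80 with library totals.

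Of 9 tested genes of the Myc network, 2 fell and none rose by edgeR's test (all genes 14.2% lower, 13.3% higher). DESeq2 gave 3 lower and 1 higher (16.8% and 15.6%), and limma-voom 2 lower and 0 higher (14.0% and 10.7%). Myc (chromosome 15) had 27.5, 45.7 and 53.2 CPM in low and 43.4, 154 and 131 CPM in high glucose replicates 1 to 3. High replicates 2 and 3 stood above every low glucose library, whereas high replicate 1 lay among them. The change of 1.38 ± 0.47 had an edgeR adjusted p of 0.0627, and 0.00808 with the replicate block (1.24). Without high replicate 1 it was 1.77 and passed. Mycn, a paralog of Myc, fell by 3.02 ± 0.40 on the log2 scale, from 2.59, 4.82 and 4.09 CPM to 0.389, 0.399 and 0.605 CPM. These are low counts, 31, 29 and 26 at low and 11, 8 and 12 at high glucose, so the size of the change is uncertain. Mxd1, whose protein competes with Myc for Max, fell by 1.81 ± 0.48, a call lost without low replicate 1 or 2 or high replicate 2 or 3 (-1.64 to -1.54) and with library totals (-0.66).

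**Figure D5:**
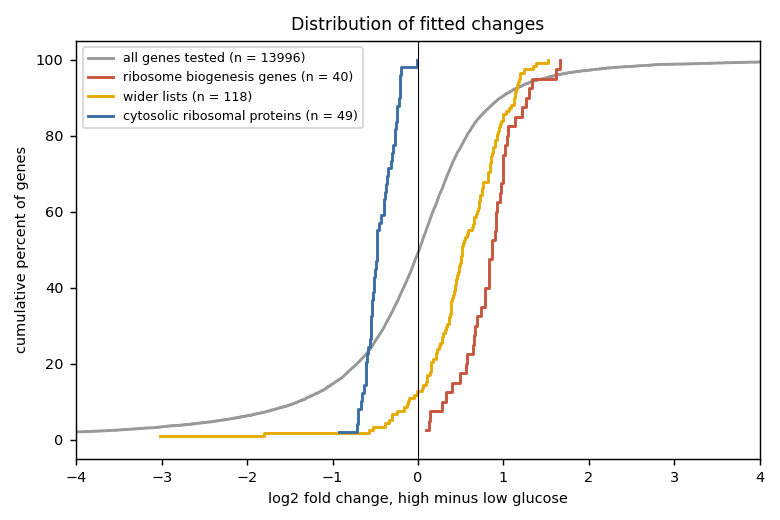
Cumulative share of genes by log2 fold change (high minus low glucose). Curves show all 13996 tested genes, 40 ribosome biogenesis genes, 118 wider list genes (9 of the Myc network) and 49 cytosolic ribosomal protein genes. The median is 0.01, 0.87, 0.52 and -0.48 in that order; the ribosomal protein curve lies left of 0 with TMM scaling.

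The genes of the ribosomal proteins themselves, which the factors above assemble, were measured beside them. Of 49 tested cytosolic ribosomal protein genes 0 were called by edgeR. At an unadjusted p under 0.05, 0 were higher and 8 lower, as were 2882 of all 13996 tested genes. DESeq2 gave 4 lower, where 16.8% of all genes were lower, and limma-voom 0 in either direction, where 14.0% of all genes were lower. Their median was -0.48, and it was 0.73 with library totals, where it stayed below the all-gene median of 1.16 and 43 were called higher. With the replicate block 10 of 49 were lower against 17.7% of all genes, and without low replicate 1 it was 23 of 49 against 11.1%. Ribosomal protein genes have many processed copies in the genome, so their counts are uncertain.

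The genes most like Nop56 and Ncl in their pattern were sought among 8349 genes with a mean of at least 10 CPM, by Pearson's r of log2 (CPM + 1) over the 6 libraries. For Nop56 they were Smn1, Rrp9, Capn2, Rrp8 and Smad1, with r between 0.998 and 0.999, and Rrp9 is itself a member. For Ncl they were Naa50, Nsun2, Cars, Alg9 and Ipo5, with r from 0.996 to 1.000. These values are descriptions over 6 libraries in 2 groups that share the group difference.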

How the data were processed

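Polyadenylated RNA of isolated mouse islets was measured in 6 libraries, 3 per glucose condition. Library input was 500 ng of total RNA, amplified over 9 PCR cycles, per the labels' protocols. The deposited values are raw counts of reads per Ensembl gene, and STAR 2.7.3a, HTSeq 0.6.1p1 and the GRCm38 build were used per the submitters' processing notes. The sources used here give neither the annotation release nor the strand setting, and name no molecular identifiers, so intervals and spreads of low counts may include amplification.

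Columns were assigned to samples by name and groups came from the labels. Gene names and coordinates are GENCODE M21 on GRCm38, and 495 genes without a name held 0.0141% of counts. No pair of libraries of a group differed by less than sampling noise. Tests used edgeR 4.0.16 in R 4.3.3 (quasi-likelihood F-test, TMM scaling, filterByExpr with a minimum count of 10 and total of 15, Benjamini-Hochberg adjustment over 13996 genes). SEs were obtained by dividing the log2 fold change by √F, and 95% intervals use the fit's degrees of freedom. The members and lists were chosen with earlier results of these data known. Every member is a named gene; values per library are given for members called and for the member of highest mean CPM in each role, with further values where a sentence needed them, a choice made after the values were seen. From the other lists, the 2 called genes of smallest p per direction are named, with Myc, Ubtf and Rrn3. Smn1 and the other most alike genes came from the stated correlation rule. Riok2 and Exosc6 were not analysed here.

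Same-numbered libraries deviated together from their group means (correlations 0.40, 0.26 and 0.25, other pairs -0.31 to 0.07). The numbers may pair the libraries, although no label states it and these correlations do not show shared animals. A block on the replicate number was therefore fitted as an alternative only. The main fit, which gave the reported calls, has no block. The fit was tested on simulated data. Alternatives were other scalings, filters, DESeq2 1.42.0, limma-voom (limma 3.58.1), a robust fit, a block on the replicate number, and leaving out single libraries. Promoter sequences are from RefSeq (GRCm38.p6). Figures were drawn with matplotlib 3.10.9.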

Additional observations from a re-analysis of the deposited data

How the results depend on the processing

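The count of all genes called was 3848. It was 8978 (8349 higher, 629 lower) with library totals. Scaling to the hormone and granule genes gave 2133, and it ranged from 1743 (without low glucose replicate 2) to 5685 (without high glucose replicate 1) with 1 library left out; it was 4670 with the replicate block. Higher against lower calls were 1861 and 1987 with TMM, 1963 and 824 with ribosomal protein gene scaling, and 3643 and 1270 with library totals taken without the acinar markers, an alternative chosen after seeing the data. In brackets below is the percent of all tested genes called higher in the same fit. Members called higher numbered 25 (13.3%), 40 with library totals (59.7%) and 10 when scaled to hormone and granule genes (7.78%). They numbered 32 with the replicate block (15.7%), and 9 (4.86%) to 33 (19.8%) with 1 library left out. For the other pathway and Myc network genes the count was 45 (13.3%). It was 113 with library totals (59.7%) and 14 when scaled to hormone and granule genes (7.78%). It was 91 with library totals without the acinar markers (26.0%) and 58 with the replicate block (15.7%). With 1 library left out it ran from 15 (4.86%) to 71 (19.8%). No member was called lower under any of the 19 alternatives. Signs turned for Dkc1 without low glucose replicate 1 (-0.073) or high glucose replicate 2 (-0.0018), for Bop1 without low glucose replicate 1 (-0.019), and for Ubtf with library totals (0.80) and ribosomal protein gene scaling (0.0651). With 1 library left out, Dkc1 ranged from -0.0732 to 0.277 and Bop1 from -0.019 to 0.477. The cause of these moves was not tested. Over the 40 members and 19 alternatives, 622 values kept direction and side of the threshold, 74 lost the call, 61 gained it and 3 changed sign. The replicate block ended or made no call among the named genes other than those given in the report. The lowest count of a member in any library was 34.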
